A study of Mus musculus with 27 samples.

Results

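The receptor-type protein tyrosine phosphatase genes described here were followed through expression, DNA methylation and histone marks. They are Ptprm, which the study names, Ptprk, Ptprt, Ptpru, Ptprj, Ptprc, Ptpre, Ptpra, Ptpro and Ptprg. They were taken as a list and are 10 of the 23382 gene symbols in the expression tables, in which all 10 were found. The cells came from the VavP-Bcl2 mouse model of B-cell lymphoma, in which a transgene drives the survival gene Bcl2 from a promoter active in blood cells. In the SHMT2 group, stem cells from VavP-Bcl2 fetal livers of embryonic day E13.5 carried MSCV-SHMT2, a retrovirus expressing the mitochondrial serine hydroxymethyltransferase. In the vector group, the same kind of stem cells carried the empty retrovirus. Both groups therefore carry the Bcl2 transgene, and both were grown in irradiated wild type recipients, whose own surviving cells were not separated from the donor cells by any step that the labels name. B220-positive cells were taken from spleens with tumours, and the age and number of animals are not given in the sources used here. Reduced representation bisulfite sequencing (ERRBS) gives the methylation of cytosines where CpG are dense. Its labels name only the model, the vector and B220-positive cells, and the transfection label of SHMT2 replicates 2 and 3 reads SHMT3 and SHMT4, where the titles say SHMT2. The titles were followed. RNA-seq and ERRBS had 3 SHMT2 and 3 vector libraries each, ChIP-seq of H3K4me3 had 3 and 2, and ChIP-seq of H3K4me1 had 2 and 2. The labels do not state whether each library is a different animal, and p-values therefore cover the spread among these libraries alone, part of which may be technical.

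Receptor-type tyrosine phosphatases remove phosphate from tyrosines at the inner face of the cell membrane and so oppose or tune tyrosine kinases. Ptprm, Ptprk, Ptprt and Ptpru form the subfamily with an outer MAM domain. Ptprm, Ptprk and Ptprt bind their own kind on a neighbouring cell and act near cadherins and catenins. Ptprc encodes CD45, the abundant phosphatase of white blood cells, which removes the inhibitory phosphate of Src family kinases and is needed for antigen receptor signalling, and B220 is the form of CD45 that marks B cells. H3K4me3 is the histone mark of gene starts that are active or held ready, H3K4me1 marks enhancers and their surroundings, and dense methylation of a CpG-rich start is known to go with silence. The study's title names epigenetic silencing of tumour suppressors, which makes methylation and RNA of genes such as Ptprm, with SHMT2 and without, the question here.

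The sequences at the starts show which of the genes bisulfite sequencing could read. Each run below is a RefSeq promoter window of build GRCm38.p6, the build also called mm10, from 250 bases before to 50 after the annotated start, given 5′ to 3′ on the strand of the gene. Capitals mark CpG positions with a methylation value in all 6 ERRBS libraries. The first 3 windows carried methylation, with no H3K4me3 peak within 1 kb of the start in these cells. The next 2 carried almost no methylation and had H3K4me3 peaks within 1 kb of the start. The Ptpru peaks ended at 131838210, just short of its window. The last window is the CpG-poor start of Ptprc.
Ptprm, chr17:67354410-67354709, minus strand: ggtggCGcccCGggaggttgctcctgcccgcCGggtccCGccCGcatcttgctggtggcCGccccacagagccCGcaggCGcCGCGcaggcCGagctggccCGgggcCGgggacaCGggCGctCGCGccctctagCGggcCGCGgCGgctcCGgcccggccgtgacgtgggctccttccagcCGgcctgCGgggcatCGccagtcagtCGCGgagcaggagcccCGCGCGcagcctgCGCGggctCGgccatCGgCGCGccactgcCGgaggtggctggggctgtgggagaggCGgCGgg
Ptprk, chr10:28074570-28074869, plus strand: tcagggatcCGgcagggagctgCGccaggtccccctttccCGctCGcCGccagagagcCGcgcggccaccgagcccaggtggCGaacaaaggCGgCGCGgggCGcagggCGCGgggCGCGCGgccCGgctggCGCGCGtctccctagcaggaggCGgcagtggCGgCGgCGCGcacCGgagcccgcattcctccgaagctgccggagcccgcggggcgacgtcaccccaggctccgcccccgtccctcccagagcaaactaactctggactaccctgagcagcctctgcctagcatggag
Ptprt, chr2:162661098-162661397, minus strand: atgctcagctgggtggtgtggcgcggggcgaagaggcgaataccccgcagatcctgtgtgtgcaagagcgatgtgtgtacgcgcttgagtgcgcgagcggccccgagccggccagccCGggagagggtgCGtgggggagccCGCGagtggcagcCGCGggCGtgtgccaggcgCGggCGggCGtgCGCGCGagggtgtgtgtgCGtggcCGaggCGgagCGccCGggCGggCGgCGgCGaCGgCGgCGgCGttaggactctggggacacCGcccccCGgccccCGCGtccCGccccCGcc
Ptpru, chr4:131838229-131838528, minus strand: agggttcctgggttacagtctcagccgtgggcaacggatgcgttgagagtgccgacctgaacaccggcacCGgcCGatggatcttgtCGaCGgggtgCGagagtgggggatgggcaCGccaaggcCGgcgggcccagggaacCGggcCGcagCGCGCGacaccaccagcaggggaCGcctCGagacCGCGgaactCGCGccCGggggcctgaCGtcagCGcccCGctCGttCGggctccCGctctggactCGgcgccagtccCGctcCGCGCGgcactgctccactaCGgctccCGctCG
Ptprj, chr2:90580546-90580845, minus strand: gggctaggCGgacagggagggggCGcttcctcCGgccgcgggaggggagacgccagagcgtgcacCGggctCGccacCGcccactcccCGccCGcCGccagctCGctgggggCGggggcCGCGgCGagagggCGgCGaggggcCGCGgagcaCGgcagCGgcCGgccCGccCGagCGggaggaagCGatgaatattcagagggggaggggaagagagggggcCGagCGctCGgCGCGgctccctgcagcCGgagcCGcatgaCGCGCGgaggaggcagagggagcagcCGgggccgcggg
Ptprc, chr1:138175256-138175555, minus strand: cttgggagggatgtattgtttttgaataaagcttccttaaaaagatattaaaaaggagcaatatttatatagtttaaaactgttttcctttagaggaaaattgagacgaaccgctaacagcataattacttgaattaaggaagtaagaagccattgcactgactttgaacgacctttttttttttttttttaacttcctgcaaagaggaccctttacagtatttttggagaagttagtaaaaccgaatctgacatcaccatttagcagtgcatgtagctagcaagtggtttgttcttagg
The Ptprm window held 43 CpG dinucleotides, of which 39 were read, at a GC content of 80.7%. Those of Ptprk, Ptprt, Ptpru and Ptprj held 38, 46, 40 and 42, and those of Ptprg and Ptpra held 36 and 32. The median over 32851 promoter windows was 7 CpG. The Ptprc window had 4 CpG and none with a value, that of Ptpro 5 with none read, and that of Ptpre 20 with 1 read. The methylated start of Ptprm and the unmethylated one of Ptpru were thus alike in CpG density. The letters GGGCGG, searched on both strands, occurred 2 times in the Ptprm window, once or more in those of Ptprk, Ptprt, Ptprj, Ptpre and Ptpra, and in none of those of Ptpru, Ptprc, Ptpro and Ptprg, while 35.7% of all windows held them. TATAAA, searched the same way, occurred in the Ptprc window alone among the 10 main windows, against 13.6% of all windows.

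Some libraries stood apart from their group. In RNA-seq, the summed level of 11 erythroid marker genes was 126, 56.6 and 149 TPM (a length-scaled share of all transcripts) in SHMT2 replicates 1 to 3, against 63.2, 3897 and 766 TPM in vector replicates 1 to 3, with Hba-a1 and Hbb-b1 listed at 0 throughout. The sum of 15 myeloid markers was 380, 315 and 267 TPM in SHMT2, against 199, 1116 and 1061 TPM in vector. Vector replicates 2 and 3 thus held more erythroid and myeloid transcripts. In ERRBS, SHMT2 replicate 2 lay at least 10 percentage points above all other libraries in 3143 of 89375 tiles of 1 kb and below all others in 8387, where no other library exceeded 651 and 1100. The mean coverage in ERRBS was 63.0 to 71.6 calls over 1330340 to 1424115 cytosines a library, TPM tables keep no depth, and the lists held 33119 to 52056 H3K4me1 and 33313 to 38249 H3K4me3 peaks. Of the labelled cell type, 7 B cell markers summed to 8079, 8233 and 8002 TPM in SHMT2 and 8600, 6285 and 6173 TPM in vector. Shmt2 itself stood at 244, 345 and 259 TPM in SHMT2, against 174, 223 and 157 TPM in vector (limma log2 fold change 0.61, SE 0.19, adjusted p = 0.216).

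Among the phosphatases, Ptprc RNA was by far the most abundant, 4 others were expressed at moderate or low levels, and 5, Ptprm among them, averaged under 1 TPM. No member differed between SHMT2 and vector beyond the spread of the libraries. Mean levels over the 6 libraries ran in the order Ptprc (304 TPM), Ptprj (30.7 TPM), Ptpre (16.0 TPM), Ptpra (15.5 TPM), Ptprk (3.69 TPM), Ptpro (0.416 TPM), Ptprm (0.287 TPM), Ptpru (0.1005 TPM), Ptprg (0.00779 TPM) and Ptprt, which was listed at 0 in every library. The ranges of Ptprj, Ptpre and Ptpra overlapped from one neighbour to the next, as did those of Ptpro, Ptprm and Ptpru. Ptprc stood clear of Ptprj, and Ptprk clear of Ptpra above it and Ptpro below it. The test was limma on log2(TPM + 1) over the 11117 genes that averaged 1 TPM or more, so a fold change is on that scale and understates the change of low genes. The filter kept 5 of the 10 members (Ptprk, Ptprj, Ptprc, Ptpre and Ptpra). Of these, 0 passed an adjusted p under 0.05 and 0 an unadjusted one, in a comparison that called 0 of 11117 genes (0%) and put 1858 at an unadjusted p under 0.05. No member had all SHMT2 libraries on one side of all vector libraries, while 16.9% of tested genes were higher and 8.26% lower in that sense.

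**Figure D1:**
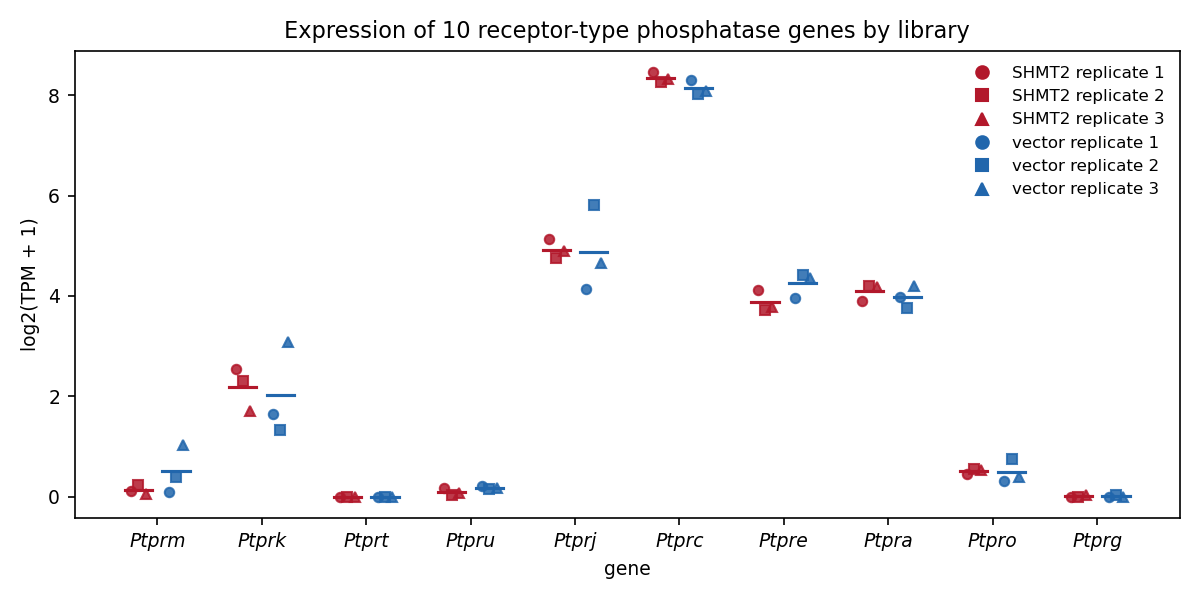
Level of the 10 phosphatase genes in each RNA-seq library, as log2(TPM + 1), with SHMT2 libraries in red left of vector libraries in blue. Symbols give the replicate and bars the group mean (n = 3 each). Ptprc lies near 8 in every library, Ptprm and Ptprk have their highest value in vector replicate 3, and Ptprj has its highest in vector replicate 2.

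Ptprm, the homophilic adhesion phosphatase of the MAM subfamily, stood at 0.0834, 0.177 and 0.0394 TPM in SHMT2 replicates 1 to 3, against 0.0634, 0.316 and 1.04 TPM in vector replicates 1 to 3. The groups overlapped, since vector replicate 1 lay below 2 of the 3 SHMT2 libraries, and the difference rested on vector replicates 2 and 3. The difference in mean log2(TPM + 1) was −0.37 (two-sided exact permutation p = 0.3, where 3 against 3 cannot go below 0.1), and −1.15 with a pseudocount of 0.1. Without vector replicate 3 it was −0.11, and without vector replicates 2 and 3 together, an alternative added after the data were seen, 0.05. Those are the libraries with high erythroid and myeloid markers, whose part in the result was not tested. In bulk cells, fewer cells of a type and less RNA per cell cannot be told apart.

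Ptprk, a relative of Ptprm that acts at cell contacts, stood at 4.81, 3.91 and 2.27 TPM in SHMT2, against 2.14, 1.52 and 7.503 TPM in vector. The highest and the 2 lowest levels were all vector libraries. In limma its log2 fold change came to 0.16 (SE 0.49, adjusted p = 0.885), and it was −0.02, −0.03 and −0.19 without SHMT2 replicate 1, vector replicate 1 and vector replicate 2, against 0.69 without vector replicate 3. Ptpru, the fourth of the subfamily, stood at 0.130, 0.0260 and 0.0490 TPM in SHMT2 and 0.158, 0.117 and 0.123 TPM in vector. SHMT2 replicates 2 and 3 were below every vector library and SHMT2 replicate 1 was not (difference −0.09, or −0.51 with a pseudocount of 0.1, exact permutation p = 0.3). Ptprt, mainly known from the nervous system, was listed at 0 throughout, which in tables without counts is not read as absence.

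Ptprc stood at 352, 308 and 320 TPM in SHMT2, against 314, 259 and 271 TPM in vector. Vector replicate 1 lay between the SHMT2 libraries, and vector replicates 2 and 3 lay below them all. In limma the log2 fold change came to 0.22 (SE 0.10, adjusted p = 0.356), and to 0.05 without vector replicates 2 and 3 together. The cells were collected by B220, itself a form of the Ptprc protein. Ptprc made up 83.5%, 83.7% and 83.9% of the summed TPM of the 10 genes in SHMT2, and 86.6%, 74.1% and 79.5% in vector.

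Ptprj, CD148, a phosphatase of blood cells that acts on Src family kinases as Ptprc does, stood at 33.95, 26.0 and 28.7 TPM in SHMT2, against 16.7, 54.8 and 24.3 TPM in vector. The vector group held both the lowest and the highest library, and the highest was the one with the strongest erythroid signal. In limma the log2 fold change came to 0.05 (SE 0.41, adjusted p = 0.954). It changed sign without SHMT2 replicate 1 (−0.05), vector replicate 1 (−0.31) and vector replicate 3 (−0.05), and was 0.52 without vector replicate 2.

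Ptpre and Ptpra are close relatives with short outer parts, and Ptpra is known to activate Src. Ptpre stood at 16.3, 12.1 and 12.8 TPM in SHMT2, against 14.6, 20.5 and 19.5 TPM in vector. SHMT2 replicate 1 lay above vector replicate 1, and the other 2 SHMT2 libraries were below all vector libraries. In limma its log2 fold change, the largest in size of the 5 tested members, came to −0.38 (SE 0.17, adjusted p = 0.329), and to −0.10 when vector replicates 2 and 3 were both left out. Ptpra stood at 13.9, 17.3 and 17.0 TPM in SHMT2, against 14.8, 12.6 and 17.4 TPM in vector (log2 fold change 0.11, SE 0.15, limma adjusted p = 0.725). Its 6 libraries lay within 1.38-fold of each other, close to the 1.36-fold of Ptprc, where Ptprj spanned 3.28-fold and Ptprk 4.94-fold.

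Ptpro, the phosphatase of kidney podocytes that also has a short form in blood cells, stood at 0.375, 0.462 and 0.436 TPM in SHMT2, against 0.234, 0.681 and 0.309 TPM in vector. All SHMT2 libraries lay within the vector range (exact permutation p = 0.9). Ptprg, which has an outer domain like carbonic anhydrase, was listed above 0 in 1 library of each group, SHMT2 replicate 3 (0.0213 TPM) and vector replicate 2 (0.0254 TPM).

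Genes that work with these phosphatases were examined as lists, of which none had a member past the adjusted threshold. Of 11 other receptor-type phosphatases, 2 were at 1 TPM or more: Ptprs at 11.4, 6.28 and 8.48 TPM in SHMT2 against 8.77, 15.97 and 8.36 TPM in vector, and Ptprv at 5.91, 4.68 and 4.19 TPM against 5.69, 4.68 and 3.96 TPM. Of 17 non-receptor phosphatases 14 were tested, 7 with a higher and 7 with a lower mean in SHMT2 (median log2 fold change 0.01, against 0.02 for all genes). Ptpn6 (SHP-1), which damps B cell receptor signals, stood at 551, 483 and 521 TPM in SHMT2, against 454, 373 and 407 TPM in vector (log2 fold change 0.34, limma adjusted p = 0.218). Ptpn7, a phosphatase of MAP kinases in blood cells, had a log2 fold change of 0.43 (limma adjusted p = 0.205). Every SHMT2 library was above every vector library for 3 of the 14, Ptpn6, Ptpn7 and Ptpn18, the last named after its values were seen (log2 fold change 0.16, limma adjusted p = 0.457), and for 16.9% of all tested genes.

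All 11 Src family kinases and regulators were tested, 4 with a higher and 7 with a lower mean in SHMT2 (median −0.11). Ptprcap, the CD45-associated protein, stood at 43.2, 47.8 and 47.4 TPM in SHMT2, against 38.8, 27.3 and 30.5 TPM in vector (log2 fold change 0.52, limma adjusted p = 0.206). Pag1, the membrane adaptor that recruits the Src inhibitor Csk, stood at 109, 117 and 108 TPM in SHMT2, against 126, 144 and 179 TPM in vector (log2 fold change −0.41, limma adjusted p = 0.245). Csk itself stood at 273, 279 and 283 TPM in SHMT2, against 257, 186 and 208 TPM in vector (log2 fold change 0.37, limma adjusted p = 0.249). In this list 2 genes, Ptprcap and Csk, were higher and 1, Pag1, was lower in every SHMT2 library, and none passed the threshold. These shares of the 11 genes were near those of all tested genes, 16.9% higher and 8.26% lower. Csk is named here after its values were seen. Of 11 adhesion partners and substrates of the MAM subfamily found among the gene symbols, 8 were tested, 4 with a higher and 4 with a lower mean (median −0.14). Gnb2l1, the scaffold RACK1, stood at 3301, 2828 and 2996 TPM in SHMT2, against 2412, 2068 and 2521 TPM in vector (log2 fold change 0.38, limma adjusted p = 0.212). Plcg1 stood at 186, 167 and 161 TPM in SHMT2, against 177, 308 and 549 TPM in vector. The groups overlapped, and its log2 fold change was −0.85 (limma adjusted p = 0.336).

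By Pearson correlation of log2(TPM + 1) over the 6 libraries, the 5 genes most like Ptprm among the genes tested were Tug1 (r = 0.995), Zfp788 (0.994), 1110032A03Rik, Per3 and LOC622070 (0.993 each). Per3, a circadian clock gene, stood at 7.10, 6.87 and 4.33 TPM in SHMT2, against 5.47, 14.8 and 85.7 TPM in vector. Each of the 5 had its highest level in vector replicate 3, as Ptprm did. They were picked for their correlation with Ptprm over these same 6 libraries, so the shared peak is no separate support. Ptprm, under the filter, stood at 1.04 TPM in that library and at most 0.316 TPM elsewhere, so 1 library weighs heavily in each r. Of the other members, Ptpre (0.65) and Ptprk (0.61) were nearest to Ptprm, and Ptprc was the most opposed (−0.69).

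The starts of the 10 genes fell into methylated and unmethylated ones. Methylation within 1 kb of the start could be read for 9 of 10 genes, and it was between 9.20% and 65.7% at Ptprm, Ptprk, Ptprt, Ptpro and Ptprg in every library. It was under 1% at Ptpru, Ptprj and Ptpra in every library, and lay between at Ptpre. A region needed at least 3 cytosines with 10 or more calls in all 6 libraries, and the start of Ptprc and the far ends of all 10 genes had no such region. The test was a binomial regression on methylated and total calls with the spread between libraries moderated over all regions, and calls were made at 10 points or more with an adjusted p under 0.05. Of the 9 member starts 0 were called, as were 0 of 10075 gene starts (0%), with 293 of these at an unadjusted p under 0.05. The groups overlapped at all 9, where 3.79% of gene starts were higher and 4.71% lower in every SHMT2 library than in every vector library.

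**Figure D2:**
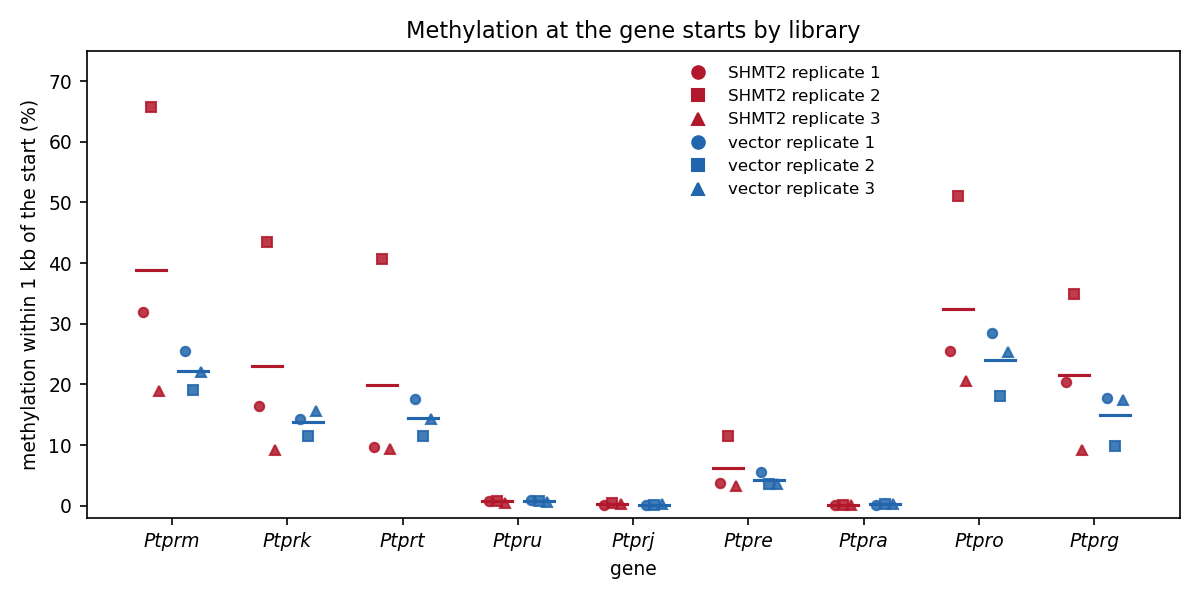
Methylation in percent within 1 kb of the start of 9 phosphatase genes in each ERRBS library, SHMT2 in red left of vector in blue, with bars for the group mean (n = 3 each). SHMT2 replicate 2, the red square, lies above the other 5 libraries at Ptprm, Ptprk, Ptprt, Ptpre, Ptpro and Ptprg, and Ptpru, Ptprj and Ptpra stay under 1% in all 6.

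The start of Ptprm, read over 149 cytosines with at least 9726 calls in each library, was methylated at 31.95%, 65.7% and 18.9% in SHMT2 replicates 1 to 3, against 25.4%, 19.0% and 22.0% in vector replicates 1 to 3. SHMT2 replicates 1 and 2 lay above every vector library. SHMT2 replicate 3 lay just under the lowest of them, at 18.92% against 19.00% in vector replicate 2. The group means were 38.9% ± 24.2 in SHMT2 and 22.2% ± 3.22 in vector (SD, n = 3 each), a difference of 16.7 points (moderated binomial model, adjusted p = 0.895, unadjusted p = 0.189). Without SHMT2 replicate 2 the difference was 3.27 points, and without SHMT2 replicate 3 it was 26.7 points (adjusted p = 0.611).

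The single cytosines of the Ptprm window printed above gave the same order. Over its 54 cytosines the median level was 32.9%, 69.4% and 18.2% in SHMT2, against 24.0%, 18.6% and 20.2% in vector. SHMT2 replicate 2 was the highest library at 52 of the 54. In that library 42 of the 54 were methylated at over 50%, against 1 in SHMT2 replicate 1 and 0 in each of the other 4 libraries. The higher level in SHMT2 replicate 2 was thus spread over the window and was not carried by a few positions.

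The starts of Ptprk, Ptprt, Ptpro and Ptprg had the same library, SHMT2 replicate 2, at the top. Ptprk was methylated at 16.4%, 43.5% and 9.21% in SHMT2, against 14.3%, 11.4% and 15.7% in vector (difference 9.20 points, adjusted p = 0.895). Ptprt was at 9.75%, 40.7% and 9.30% in SHMT2, against 17.5%, 11.5% and 14.2% in vector (5.51 points, adjusted p = 0.944). SHMT2 replicate 2 was far above the rest at both genes, and without it the differences were −1.03 and −4.90 points, the signs reversed. Ptpro was at 25.5%, 51.1% and 20.6% in SHMT2, against 28.4%, 18.1% and 25.4% in vector over 30 cytosines (8.41 points, adjusted p = 0.905). Ptprg was at 20.3%, 34.9% and 9.20% in SHMT2, against 17.7%, 9.85% and 17.5% in vector (6.49 points, adjusted p = 0.903). These also changed sign without SHMT2 replicate 2, to −0.93 and −0.24 points.

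Starts with little methylation differed by small amounts. Ptpre was at 3.77%, 11.5% and 3.25% in SHMT2, against 5.59%, 3.58% and 3.62% in vector (1.91 points, adjusted p = 0.928, and −0.75 points without SHMT2 replicate 2). Ptpru was at 0.818%, 0.836% and 0.489% in SHMT2, against 0.992%, 0.855% and 0.570% in vector. SHMT2 replicate 2 did not stand out at Ptpru, whose window has 40 CpG against 43 in that of Ptprm. Ptprj was at 0.163%, 0.427% and 0.252% in SHMT2, against 0.123%, 0.182% and 0.211% in vector, and Ptpra at 0.135%, 0.190% and 0.182% against 0.122%, 0.223% and 0.271%.

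SHMT2 replicate 2 lay at least 10 points above all other libraries at 5 of the 9 member starts, namely Ptprm, Ptprk, Ptprt, Ptpro and Ptprg, and at 6.45% of the 10083 gene starts read. Among the 1569 gene starts at 5% to 30% in the mean of the other 5 libraries the share was 33.7%, and all 5 members in that range were of this kind. The library was picked out after its values were seen, and this range was not among the planned tests. The count of members is therefore no separate support. The gap to the next library was 33.8 points at Ptprm, 27.1 at Ptprk, 23.2 at Ptprt, 22.6 at Ptpro and 14.6 at Ptprg. Mean methylation over 1211987 shared cytosines was 31.9%, 32.0% and 31.8% in SHMT2, against 31.9%, 31.5% and 31.0% in vector, so all libraries lay within 2 points of each other.

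Along the genes, 119 tiles of 1 kb had a value: 29 in Ptprm, 23 in Ptprt, 14 in Ptprg, 12 each in Ptpru and Ptpro, 9 in Ptpre, 8 in Ptprk, 7 in Ptprj, 3 in Ptpra and 2 in Ptprc. None of the 119 was called, as were 0 of 89281 tiles (0%), and 9 of the 119 and 3254 of all had an unadjusted p under 0.05. Every SHMT2 library was above every vector library in 3 member tiles (2.52%, against 3.89% of all tiles), and below in 11 (9.24%, against 4.91%). Tiles of 1 gene share their libraries and are not independent. In Ptprm the 3 tiles at the start were the least methylated in the mean of the vector libraries, and 19 of the 29 averaged over 80%. The 3 start tiles were at 33.3%, 31.5% and 40.8% in SHMT2 replicate 1, at 66.5%, 65.5% and 65.4% in SHMT2 replicate 2 and at 23.3%, 19.0% and 13.45% in SHMT2 replicate 3. They lay between 16.1% and 34.9% in the vector libraries.

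**Figure D3:**
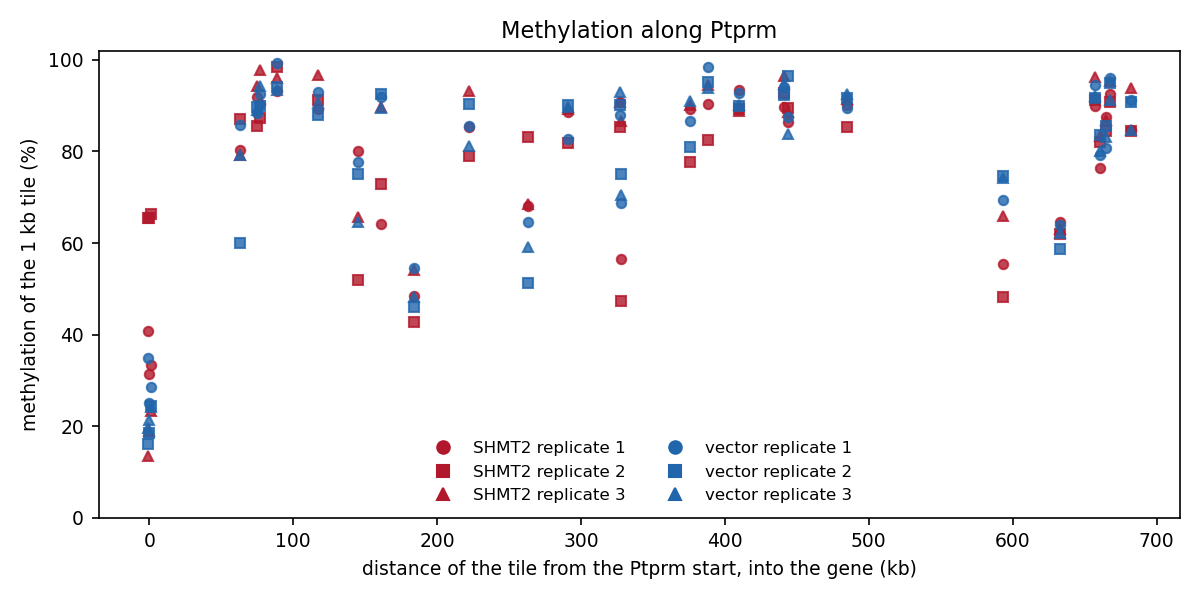
Methylation in percent of each 1 kb tile along Ptprm against its distance in kb from the start into the gene, 1 point per ERRBS library, SHMT2 in red and vector in blue. At the start SHMT2 replicate 2 lies near 65% above the other libraries, and inside the gene most tiles lie above 80% with this library often among the lowest.

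Inside the genes SHMT2 replicate 2 lay on the other side. In the 90 member tiles with no peak of either mark and more than 5 kb from the start, the median level was 83.4%. SHMT2 replicate 2 was the lowest library in 55 of them and the highest in 4. The same count was not made over all genes. Over all 89375 tiles this library was at least 10 points below all others in 8387 and above them in 3143, so its lower level was not particular to these genes. Of the Ptprm tiles, that with the smallest p lay 592991 bases into the gene (chr17:66761001-66762000, 3 cytosines). It was at 55.4%, 48.2% and 65.9% in SHMT2, against 69.5%, 74.6% and 74.3% in vector, without overlap (−16.3 points, unadjusted p = 0.0245, adjusted p = 0.908).

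The tile with the smallest p of all 119 was in Ptpru, about 2 kb inside its start (chr4:131836001-131837000, 26 cytosines). It was methylated at 14.99%, 15.8% and 15.3% in SHMT2, against 8.86%, 7.86% and 9.21% in vector (6.71 points, unadjusted p = 0.000199, adjusted p = 0.908). The libraries of each group lay close together and the groups did not overlap, and the difference stayed between 6.32 and 6.996 points with any 1 library left out. Of its 26 cytosines, 19 had a higher and 5 a lower mean in SHMT2. All SHMT2 libraries were above all vector libraries at 8, and the reverse held at 0. The share over all cytosines was not computed. The tile was picked for its small p and its cytosines share the same 6 libraries. The lack of overlap and these counts are therefore no separate support. A narrow H3K4me3 peak at chr4:131836495-131837021, found in all 5 libraries, covers part of the tile. The difference did not reach the 10 points required for a call, and Ptpru RNA was under 1 TPM in every library.

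Of the tiles named for the other genes by smallest p, that of Ptpra lay in the H3K4me3 peak at its start (chr2:130451001-130452000, 3 cytosines). It was at 31.8%, 28.8% and 58.8% in SHMT2, against 61.0%, 59.2% and 70.5% in vector (−23.8 points, adjusted p = 0.908). All SHMT2 libraries lay below all vector libraries, SHMT2 replicate 3 by less than 1 point. The Ptpre tile (chr7:135554001-135555000) was at 81.0%, 69.2% and 77.2% in SHMT2, against 65.0%, 62.7% and 62.8% in vector (12.3 points, adjusted p = 0.908). Right over the starts with H3K4me3, tiles averaged 0.640% and 0.698% in Ptpru, 0.147% and 0.515% in Ptprj, 0.187% in Ptpra and 5.12% in Ptpre, with differences between −0.10 and 1.88 points. For the remaining 6 genes the smallest-p differences ran from −11.5 points in Ptpro to 5.84 points in Ptprk, at an adjusted p of 0.908 each.

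H3K4me3 sorted the genes in the same way as start methylation. A peak lay within 1 kb of the start in all 5 H3K4me3 libraries at 4 of the 10 genes, Ptpru, Ptprj, Ptprc and Ptpra, as at 53.2% of 16457 gene starts. It was found in none of the 5 at Ptprm, Ptprk, Ptprt, Ptpro and Ptprg, as at 42.7% of gene starts. Ptpre had a small peak in 4 of 5 libraries, all 3 SHMT2 libraries and vector replicate 4, at the authors' fold enrichment of 4.49, 5.13 and 5.27 in SHMT2 and 5.67 in vector replicate 4. H3K4me1 lay at the start in all 4 libraries at 4 genes, again Ptpru, Ptprj, Ptprc and Ptpra (41.2% of gene starts), and in none at the same 5 without H3K4me3 (39.9%). Peaks were called per library and lists of unequal length allow no test of change.

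Members without H3K4me3 at the start carried few peaks elsewhere. Over the whole spans of Ptprm, Ptpro and Ptprg, which are 687644, 212336 and 688602 bases long, no library had a peak of either mark. Ptprt had 1 H3K4me1 peak 552037 bases into the gene, in both SHMT2 libraries and in vector replicate 4. Ptprk, with RNA in all 6 libraries, had no H3K4me3 peak and 1 H3K4me1 peak in a single library, SHMT2 replicate 5. Its methylated start without H3K4me3 was shared with Ptprm and Ptprt, while its RNA of 1.52 to 7.503 TPM was not.

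**Figure D4:**
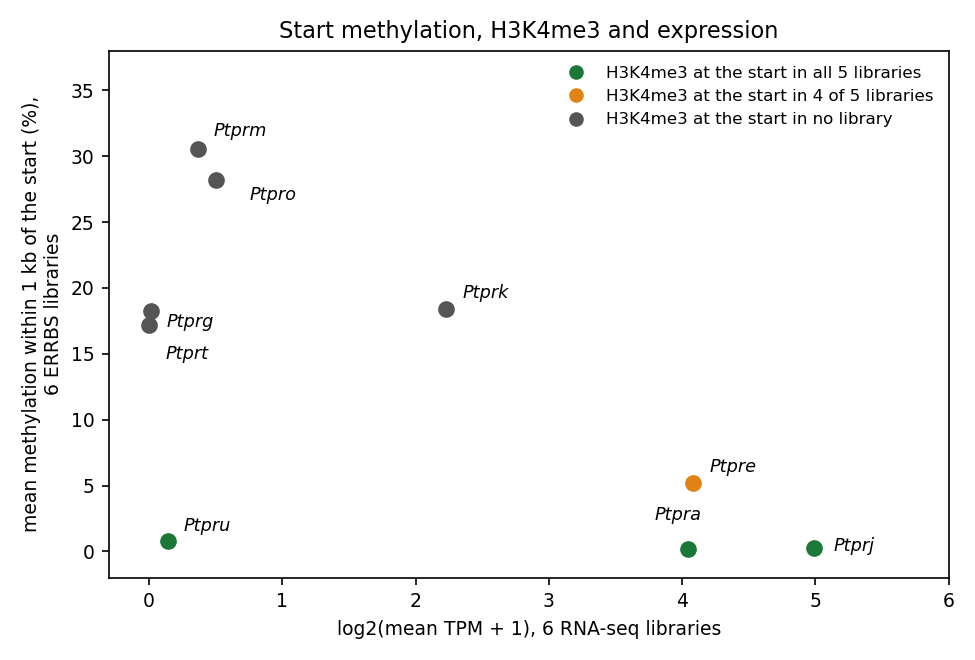
Mean methylation in percent within 1 kb of the start over 6 ERRBS libraries against log2 of the mean TPM + 1 over 6 RNA-seq libraries, 1 point per gene, coloured by the number of H3K4me3 libraries with a peak at the start. The 5 genes without H3K4me3 lie between 17.2% and 30.5%, means that include SHMT2 replicate 2, the highest library at each. Those with H3K4me3 in all 5 libraries lie under 1%. Ptpru joins an unmethylated, H3K4me3-marked start to a mean of 0.1005 TPM.

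Ptpru stood apart from its 3 subfamily relatives. Its start carried H3K4me3 at a fold enrichment of 26.9, 20.2 and 20.4 in SHMT2 and 17.3 and 22.8 in vector, and H3K4me1 in all 4 libraries, beside a mean of 0.1005 TPM. Of 2515 genes with a mean under 1 TPM and a readable start, 624 (24.8%) had H3K4me3 in all 5 libraries and a start under 5%, as Ptpru did. Another 763 (30.3%) had no H3K4me3 and a start at 5% to 40%, as Ptprm, Ptprt, Ptpro and Ptprg did. Over all genes, starts with H3K4me3 in all 5 libraries had a median methylation of 0.311%, and those with none had a median of 29.2%. The Ptprm start averaged 30.5% over the 6 ERRBS libraries, and 23.5% over the 5 other than SHMT2 replicate 2.

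Ptprc carried wide marks. Its start lay in an H3K4me3 peak of up to 5563 bases in every library, and an H3K4me1 domain covered chr1:138121229-138173812 inside the gene in all 4 libraries when joined over libraries. H3K4me3 peaks in the Ptprc span numbered 22, 15 and 9 in SHMT2 replicates 4 to 6, against 9 and 9 in vector replicates 4 and 6. The peaks found there in SHMT2 libraries and in no vector library had a fold enrichment of at most 5.55, and the count in SHMT2 replicate 6 equalled that of the vector libraries. H3K4me1 covered 56848 and 56802 bases of peaks in SHMT2, against 55093 and 50825 bases in vector.

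Ptprj differed in the number of its H3K4me1 peaks, 9 and 10 in SHMT2 against 16 and 15 in vector. The peaks in SHMT2 were fewer and covered more, 89593 and 94689 bases in SHMT2 against 66861 and 59870 bases in vector. Ptprj was the 1 gene of 10 with fewer H3K4me1 peaks in every SHMT2 library, and Ptpru and Ptpre had more in every SHMT2 library, against 2.56% and 26.2% of 11536 genes with a peak. The lists themselves held 48993 and 52056 H3K4me1 peaks in SHMT2, against 37274 and 33119 in vector. Ptprj thus had fewer peaks where the lists were longer, while Ptpru and Ptpre had more. The part of list length in these numbers was not tested. Over the 10 spans H3K4me1 peaks numbered 27 and 33 in SHMT2 and 31 and 28 in vector, and H3K4me3 peaks 42, 35 and 28 in SHMT2 and 27 and 24 in vector. In H3K4me3, Ptprj had more peaks in every SHMT2 library (9 each) than in every vector library (8 each), as had 3.28% of 10839 genes, and no member had fewer, as had 1.69%. With peaks at a −log10 q of at least 10, the mean number of H3K4me3 peaks per library was 17 in SHMT2 and 17 in vector.

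In Ptpre the strongest H3K4me3 peak was not at the first start but inside the gene. Ptpre is known to give a receptor form and, from a start further inside, a form without the outer part. The peak at chr7:135651236-135653424, 114506 bases from the first start at its centre, was found in all 5 libraries at a fold enrichment of up to 43.4, against at most 5.67 at the first start. The tile under it (6 cytosines, centred 114676 bases from the first start) was methylated at 0.149%, 3.92% and 1.41% in SHMT2, against 2.69%, 0.365% and 1.85% in vector. The nearest tiles with a value on either side, centred at 93676 and 126676 bases, were at 75.5% or more. The edges of the low stretch are therefore not resolved. H3K4me1 was found over it in all 4 libraries. No RefSeq start of Ptpre in the promoter table lay within 1 kb of this peak. A second inner H3K4me3 peak at chr7:135604886-135605597, also in all 5 libraries, lay next to the annotated start at 135605828. TPM are given per gene symbol, so the RNA of the forms was not separated.

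**Figure D5:**
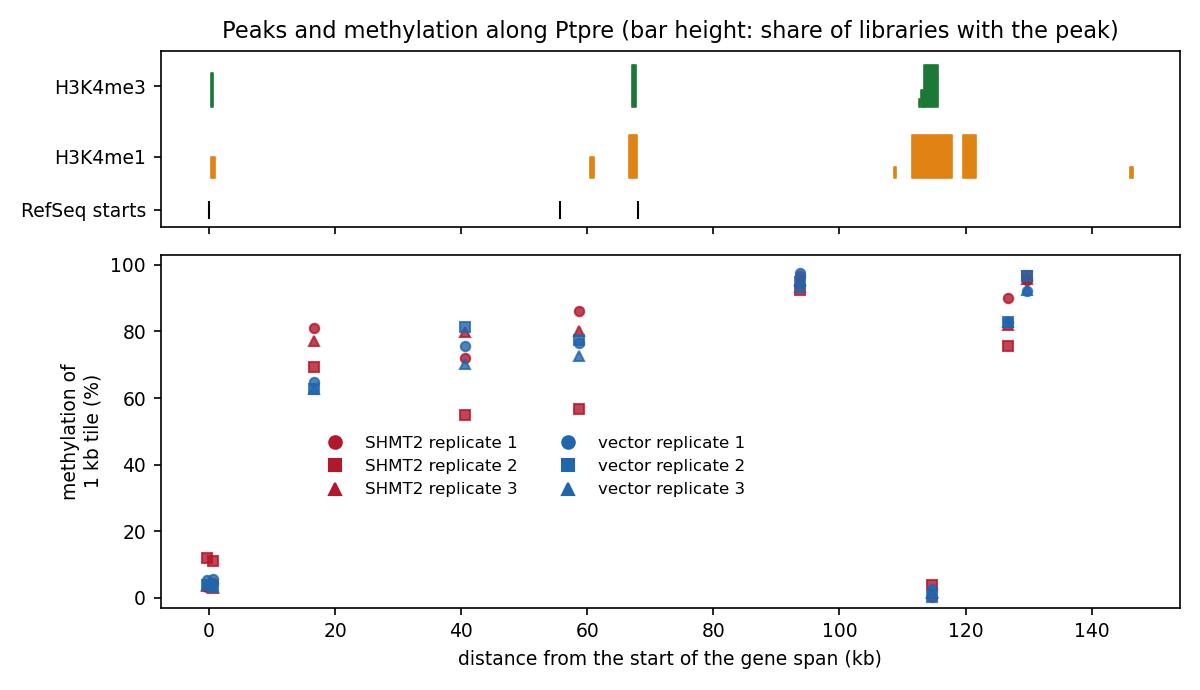
Peaks and methylation along Ptpre against the distance in kb from the first start. In the upper panel bars mark regions with a peak, joined over libraries, with a height that gives the share of libraries, and ticks mark RefSeq starts. In the lower panel points give the methylation in percent of each 1 kb tile, SHMT2 in red and vector in blue. The unmethylated tile at about 114 kb lies under H3K4me3 and H3K4me1 found in every library.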

How the data were processed

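RNA-seq files hold TPM per gene symbol, as deposited by the authors; STAR and mm10 are named in the submitters' processing notes, and no source used here names the tool that made TPM. ERRBS tables give coverage, a count of calls per CpG cytosine, and the percent read as C, per the file headers; the submitters' processing notes name Bismark and Bowtie2. Methylated calls were taken as the whole number nearest to coverage times percent. Peak lists are the authors' deposited MACS2 lists per library, broad for H3K4me1 and narrow for H3K4me3, after BWA per the submitters' processing notes. Their fold enrichment (a ratio), −log10 p and q and score are as deposited, and no source used here says whether the 6 input libraries served as control.

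Expression was tested with limma 3.58.1 in R 4.3.3 (pseudocount 1, mean of at least 1 TPM, trend, Benjamini-Hochberg adjustment over all genes), and single genes with a two-sided exact permutation test. Methylation was tested over autosomal tiles of 1000 bases and over 1000 bases on either side of gene ends from RefSeq GRCm38.p6, in a moderated quasi-binomial model with the same adjustment. The deposited CpG cytosines in the promoter windows, 289 in all, lay at the expected letter of that build. Programs were tested on simulated data. Named were all 10 members, for each the tile of smallest p with at least 3 cytosines and tiles over a start with H3K4me3, the 5 genes most correlated with Ptprm, and list genes of smallest p. The members and lists were chosen with earlier results of these data known. Alternatives were another pseudocount, no filter, quantile normalization, a coverage minimum of 20, Fisher's exact test on calls pooled by group, a replicate block, peaks at −log10 q of at least 10, 50 percent of a peak in the span, and each library left out.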

Additional observations from a re-analysis of the deposited data

How the results depend on the processing

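No result named for a member passed an adjusted threshold under any alternative that keeps the spread between libraries. The number of genes called by limma, 0, was 0 to 845 with 1 library left out. The 845 (431 higher, 414 lower) came without vector replicate 1, which leaves the libraries with high erythroid and myeloid markers as the vector group, and no member was among them. Leaving out vector replicates 2 and 3 together, chosen after seeing the data, gave 6 calls, and another pseudocount, no filter or quantile normalization gave 0. ERRBS tiles and gene ends gave 0 calls with each library left out in turn and at coverage 20, against 5799 tiles and 676 gene ends with calls pooled in Fisher's exact test, which has no term for the spread between libraries. With a replicate block the counts were 0 genes (1180 unadjusted), 0 tiles (2694) and 0 gene ends (509). Same-numbered libraries did not deviate together (r of −0.42, −0.33 and −0.06 in RNA, −0.08, −0.31 and −0.07 in ERRBS). With 3 libraries in each group, and single libraries that stand apart, such values cannot tell whether the numbers pair them. The Ptprm difference was −1.15 (log2) at a pseudocount of 0.1, against −0.37 at 1. Signs changed for Ptprk RNA (−0.02, −0.03 and −0.19, to 0.69) and Ptprj RNA (−0.05, −0.31 and −0.05, to 0.52) with 1 library left out. For RNA under the filter, leaving out vector replicate 1 or 3 turned Ptpro (0.03) to −0.06 or −0.02, and Ptprg (−0.0019) was 0.0032 without SHMT2 replicate 1 or 2 and 0.010 without vector replicate 2. Start methylation changed sign without SHMT2 replicate 2 at Ptprk (−1.03 points, to 16.1 without SHMT2 replicate 3), Ptprt (−4.90, to 10.8), Ptpre (−0.75, to 3.38), Ptpro (−0.93, to 14.3) and Ptprg (−0.24, to 12.6). The start of Ptpru, at −0.09 points, was 0.021 without SHMT2 replicate 3, 0.0013 without vector replicate 1 and −0.21 when vector replicate 3 was left out. The excess of 9.5 H3K4me3 peaks per SHMT2 library in the spans, 6 to 13 with 1 library left out, was 0 at −log10 q of at least 10. The H3K4me1 difference of 0.5 ran from −2.5 to 3.5. RNA depth is unknown, which limits what can be said of members under 1 TPM.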

Other observations

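In ERRBS, SHMT2 replicate 2 was the highest library at the methylated member starts. It was the lowest in 55 of the 90 unmarked member tiles more than 5 kb from a start. Over all 10083 gene starts read, its median difference from the mean of the other 5 libraries was −0.008 points. Of the 119 member tiles, SHMT2 replicate 2 was at least 10 points above all other libraries in 11 and below them in 18. SHMT2 replicates 1 and 3 had 1 and 1 each, and the vector libraries 0 above and 1 below each. Over all 89375 tiles SHMT2 replicate 2 was above in 3143 and below in 8387, so it stood apart well beyond these 10 genes. The 10 tiles under H3K4me3 had a median level of 0.674%, and the 106 with no mark a median of 81.1%.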
